A study of Mus musculus with 28 samples.

Results

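Protocadherins are the subject here: 34 of the 19938 mouse genes measured on these arrays carry a symbol beginning with Pcdh. A gene was taken where the platform annotation gave a probe set (the group of probes that reads one transcript) that single symbol, and a gene with more than 1 probe set is represented by the one whose mean across the 28 arrays was highest. Of the 34 genes, 22 belong to the Pcdhb cluster, Pcdhb1 to Pcdhb22, and 12 are non-clustered: Pcdh1, Pcdh7, Pcdh8, Pcdh9, Pcdh10, Pcdh11x, Pcdh12, Pcdh15, Pcdh17, Pcdh18, Pcdh19 and Pcdh20. Another probe set that carried 14 Pcdha symbols at once was not used, and Pcdhg genes were not analysed here.

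Protocadherins are cell surface adhesion proteins of the cadherin superfamily. The clustered genes lie in tandem arrays of similar genes, and a single neuron transcribes only a few of them, chosen by contacts between a distant enhancer and individual promoters that depend on the insulator protein CTCF, the ring-shaped cohesin complex and the methylation of the promoter. The proteins bind their own kind on neighbouring membranes and give neurites of one neuron a means to recognise and avoid each other. The non-clustered genes stand alone in the genome, have promoters of their own, and are known for cell sorting, migration and axon growth in particular regions of the brain.

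Total RNA of 129SvEv mouse cells was hybridised to Affymetrix whole-transcript arrays in 12 groups. Wild type cells and cells knocked out for Top2β were measured as ES cells, as neuronal progenitor cells (NP), at TN day 2 (2 arrays for each stage and genotype) and at TN day 6 (3 arrays per genotype); TN is the label's name for the neuron stages and is not spelled out. Top2β, encoded by Top2b, is the type II topoisomerase of cells that no longer divide. Neurons at TN day 5 had DMSO or 50 µM ICRF-193, an inhibitor of type II topoisomerases (2 arrays each). Treatment was renewed every 24 h between TN day 2 and TN day 5. Cortical glutamatergic neurons isolated at E16.5 had DMSO or 50 µM ICRF-193 (3 arrays each), with no schedule of their own in the labels. No genotype was given for any treated group. The labels do not say whether arrays of a group came from separate cultures, embryos or knockout clones, so every p-value measures the spread between these arrays only, which may be technical.

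Values are log2 expression levels, on which a difference of 1 is a doubling of the linear signal, and a level is compared only within a probe set. All tests were made with limma across the 19938 genes, on 12 group means with one pooled spread per gene, and a gene is said to have risen or fallen where its adjusted p (Benjamini-Hochberg) was under 0.05. Top2b ranged from 7.52 to 7.96 in wild type ES cells and from 5.79 to 7.11 in knockout ES cells, and lay at 11.15 to 11.40 in wild type TN neurons against 8.68 to 9.04 in knockout ones. Arrays of a group correlated with each other at 0.990 or higher except the 2 knockout ES arrays, at 0.967. In knockout ES replicate 1 the mean of 14 mesenchymal and fibroblast markers was 9.70, against 7.67 in replicate 2 and 7.89 to 7.90 in wild type, and the median Pcdhb level was 5.15 against 4.48 and 4.52 to 4.58. Because these 2 arrays enter the pooled spread of each gene, counts are also given without both of them. Cortical neurons with DMSO had all 9 measured glutamatergic markers above the background guide used below, but also all 8 measured GABAergic markers. Since the Pcdhb genes resemble each other closely, part of a probe set's signal may come from a neighbouring gene, which was not tested; and in RNA from a mixed culture, fewer cells that use a gene and less of its RNA per cell cannot be told apart.

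Promoter sequences are shown for 3 non-clustered genes that parted at TN day 6: Pcdh9, which codes for a neural adhesion protein, and Pcdh19, an X-linked gene mutated in a form of epilepsy, fell in the knockout, and Pcdh8, a protocadherin of synapses whose transcription follows neuronal activity, rose. Each is the 250 bases before the RefSeq start site (GRCm38.p6), with CCCTC, the core letters of the CTCF motif, or its reverse complement GAGGG in capitals.
Pcdh8, chr14:79771313-79771562, minus strand: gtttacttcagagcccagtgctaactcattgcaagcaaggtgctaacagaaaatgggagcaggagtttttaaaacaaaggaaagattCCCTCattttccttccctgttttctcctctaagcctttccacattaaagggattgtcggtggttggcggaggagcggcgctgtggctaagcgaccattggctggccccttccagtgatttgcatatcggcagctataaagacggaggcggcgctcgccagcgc
Pcdh9, chr14:93890680-93890929, minus strand: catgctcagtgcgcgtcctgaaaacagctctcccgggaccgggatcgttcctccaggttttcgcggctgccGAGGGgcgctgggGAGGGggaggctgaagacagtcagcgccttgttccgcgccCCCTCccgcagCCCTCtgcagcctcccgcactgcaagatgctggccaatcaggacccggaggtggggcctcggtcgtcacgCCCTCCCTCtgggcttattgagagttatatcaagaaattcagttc
Pcdh19, chrX:133688994-133689243, minus strand: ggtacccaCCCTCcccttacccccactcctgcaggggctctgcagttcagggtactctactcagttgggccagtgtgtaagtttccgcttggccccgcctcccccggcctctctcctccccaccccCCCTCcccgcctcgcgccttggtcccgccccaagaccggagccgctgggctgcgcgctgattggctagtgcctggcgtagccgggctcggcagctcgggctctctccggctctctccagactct
The letters occurred 1 time in the Pcdh8 window, 6 times in that of Pcdh9 (overlapping matches counted) and 2 times in that of Pcdh19, on either strand. Windows were examined for 9 of the 34 members, all non-clustered, with 10 entries, 8 of which held the letters. No window of a Pcdhb gene, Pcdh1, Pcdh11x or Pcdh12 was examined, so the member counts of letters and CpG pairs leave these genes out. Of all 32851 promoter windows of this length 60.5% held the letters. CpG pairs numbered 11, 18 and 16 in the windows of Pcdh8, Pcdh9 and Pcdh19, and the member entries held 3 to 23 (median 17.0) against a median of 6 over all windows. These are matches of letters and say nothing about binding.

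Along wild type differentiation the Pcdhb genes rose together in both early steps. From ES cells to NP, 20 of 22 rose and none fell, with a median log2 difference of 1.19 (all genes, 0.05); 21.7% of all genes rose and 24.5% fell in this step. From NP to TN day 2, 21 of 22 rose, with a median of 2.12 (all genes, −0.08), while 21.6% of all genes rose and 26.6% fell (4299 and 5310 genes, against 5260 and 4047 after median centring). From TN day 2 to TN day 6 none rose and 2 fell, Pcdhb14 by 0.70 ± 0.21 (SE) and Pcdhb18 by 0.69 ± 0.23, against 16.7% of all genes up and 11.9% down. In 13 Pcdhb genes all TN day 6 arrays lay below those of TN day 2 and in 5 above them, against 21.3% and 35.7% of all genes. The median difference was 0.16 from Pcdhb2 to Pcdhb10 and −0.37 from Pcdhb14 to Pcdhb22. With only the arrays compared in the fit 3 Pcdhb genes rose and 8 fell (3582 and 2395 of all genes). Over all 34 members the last step had 3 rises and 4 falls, and 5 and 4 after median centring. Cell type markers moved with these steps. Of 15 pan-neuronal markers 12 rose and 1 fell from ES cells to NP and 15 rose from NP to TN day 2, 10 of 10 pluripotency markers fell in the first step, and 10 of 11 cell cycle markers fell in the second. The 2 wild type TN day 2 arrays also differed in the mean of the mesenchymal markers, at 7.10 and 8.71. The part of these markers in the rise of the Pcdhb genes was not tested.

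The steps differed between genes of the cluster. Pcdhb2 stood at 4.98 and 4.82 in the wild type ES arrays, 7.28 and 6.85 in NP, 9.09 and 9.27 at TN day 2, and 9.51, 9.57 and 9.54 at TN day 6. Pcdhb10 stood at 4.60 and 4.76, then 5.26 and 4.93, then 8.98 and 8.98, and then 8.88, 8.84 and 8.89. Pcdhb2 rose in both steps (2.17 ± 0.17, adjusted p = 8.2e-10, and 2.11 ± 0.17, adjusted p = 5.7e-10), and so did Pcdhb10 (0.41 ± 0.17, adjusted p = 0.047, and 3.89 ± 0.17, adjusted p = 7.6e-14). Only 1 Pcdhb gene in wild type ES cells and 12 in NP lay above the 95th percentile of olfactory receptor genes, the guide to background described below (5.51 and 5.92). Pcdhb2 was under it in ES cells (4.90) and Pcdhb10 in ES cells and NP (4.68 and 5.09), so the sizes of rises from such levels may be understated, and the share of a rise made in each step is not known. By place in the cluster, the 9 genes from Pcdhb14 to Pcdhb22 had a median rise of 1.87 from ES cells to NP, led by Pcdhb17 at 2.64 ± 0.35, and the 9 genes from Pcdhb2 to Pcdhb10 one of 0.84; this division was chosen after the values were seen, the difference between the stretches was not tested, and nearly all of these genes started from below the guide (Pcdhb17 at 3.92). Pcdhb1, at the end of the cluster, stayed between 4.12 and 4.98 on every array, although it rose by 0.46 ± 0.17 (adjusted p = 0.029) from ES cells to NP. The calls of Pcdhb1 and Pcdhb10 in that step were lost without wild type ES replicate 1 or 2 (highest adjusted p, 0.22 and 0.32), and without wild type TN day 2 replicate 1 no Pcdhb gene fell in the last step.

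The 12 non-clustered genes followed no common course. From ES cells to NP 7 rose and Pcdh1 fell; from NP to TN day 2 8 rose and Pcdh1 fell again; and from TN day 2 to TN day 6 Pcdh1, Pcdh10 and Pcdh17 rose and Pcdh18 and Pcdh20 fell. Pcdh9 rose by 4.14 ± 0.22 (adjusted p = 2e-12) from NP to TN day 2, and Pcdh11x, an X-linked gene, by 2.33 ± 0.26 (adjusted p = 1.1e-07). Pcdh8 rose mainly in the first step, by 2.09 ± 0.15 (adjusted p = 2e-10), as did Pcdh19, by 1.22 ± 0.28 (adjusted p = 0.00097). Pcdh10 and Pcdh17, both known for the growth of axons in the forebrain, rose in all 3 steps, by 1.54 ± 0.17, 1.58 ± 0.17 and 0.84 ± 0.16 for Pcdh10 and by 1.15 ± 0.25, 0.95 ± 0.25 and 1.05 ± 0.23 for Pcdh17. Pcdh18 went the other way at the end and fell by 1.83 ± 0.32 (adjusted p = 0.00017), from 9.77 and 10.04 at TN day 2 to 7.95, 8.25 and 8.03. Pcdh1, known from epithelia, fell by 1.06 ± 0.17 and 0.73 ± 0.17 and then rose by 0.73 ± 0.15. Pcdh7 rose by 1.89 ± 0.49 (adjusted p = 0.0027) from NP to TN day 2, Pcdh15, which builds the tip links of inner ear hair cells, by 0.40 ± 0.15 (adjusted p = 0.036), and Pcdh12, an endothelial gene, passed the test in no step. The smaller calls depended on single arrays. Pcdh18 and Pcdh20 lost theirs from ES cells to NP without any one of the 4 arrays compared, and Pcdh9 without wild type NP replicate 1 or ES replicate 1 or 2. Pcdh15 lost its call from NP to TN day 2 without wild type TN day 2 replicate 1 or NP replicate 1. Pcdh20 lost its rise in that step without wild type TN day 2 replicate 2 or NP replicate 1 or 2. It stood at 5.35 and 5.42 in wild type NP, under the background guide of 5.92, and at 5.50 and 6.51 at TN day 2. The fall of Pcdh20 after TN day 2 was lost without wild type TN day 2 replicate 2.

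**Figure D1:**
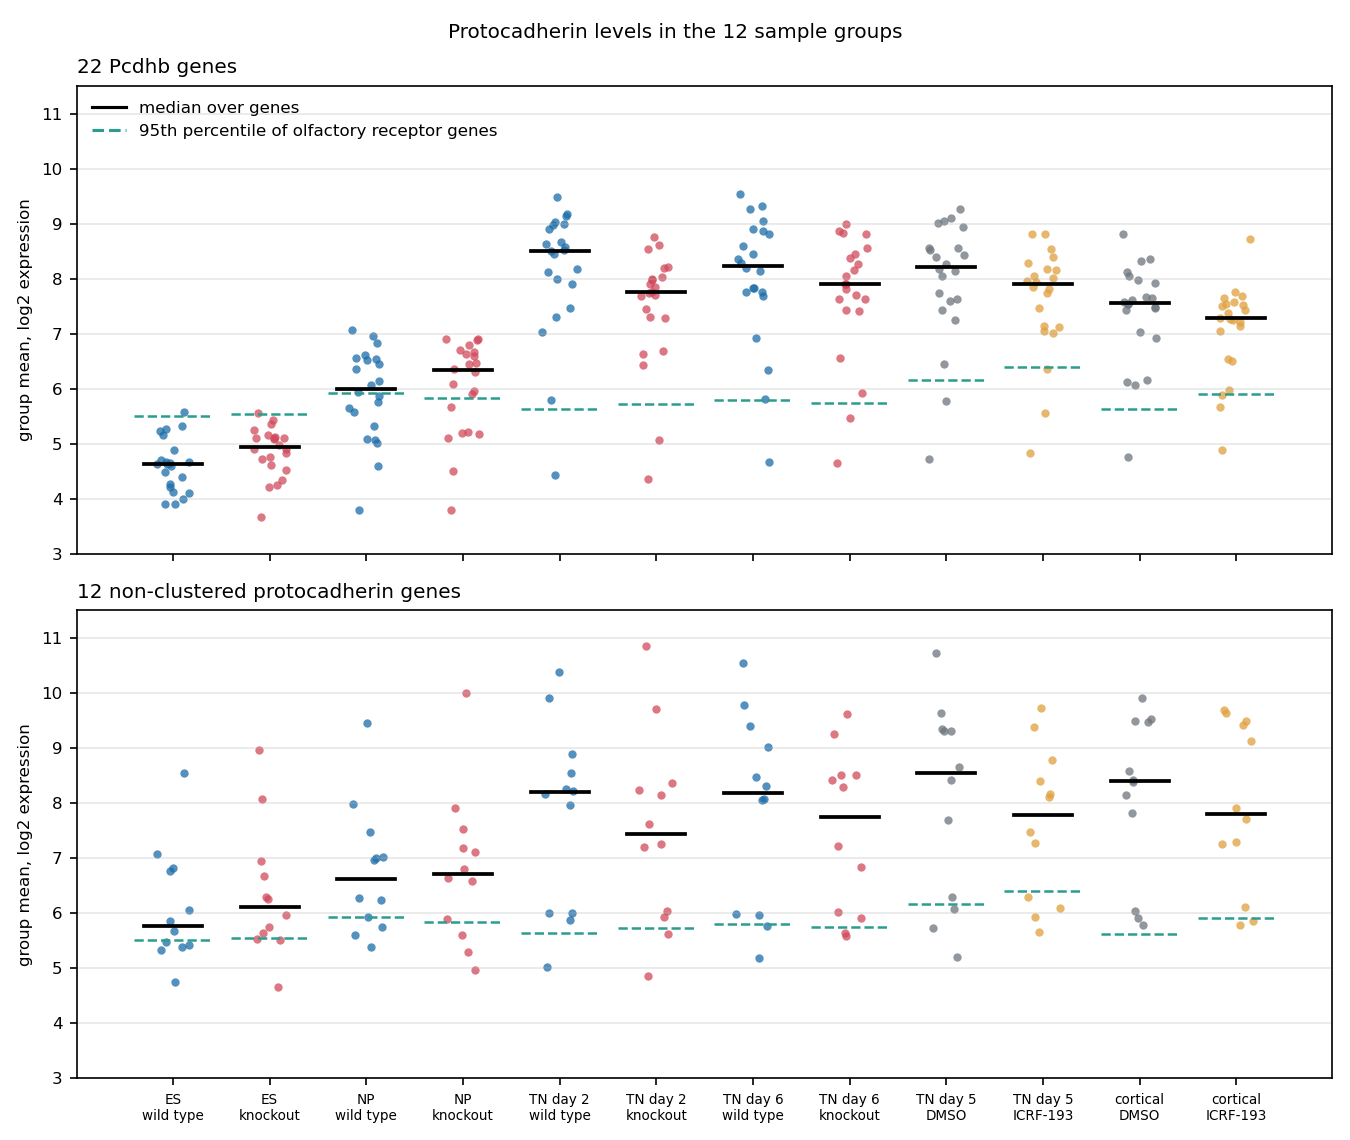
Group means (log2 expression) of the 22 Pcdhb genes (upper panel) and the 12 non-clustered genes (lower panel) in the 12 groups; points are genes, black lines their median, and dashed lines the 95th percentile of 1027 olfactory receptor genes, taken as a guide to background. In wild type the Pcdhb genes climb in a body from ES cells to TN day 2, where 21 of 22 lie above the dashed line, while the non-clustered genes stay spread out.

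Set against the 95th percentile of 1027 olfactory receptor genes, a family known mainly from the nose and used here as a guide to the background, 1 Pcdhb gene lay above it in wild type ES cells, 12 in NP, 21 at TN day 2 and 21 at TN day 6. Of the non-clustered genes 7, 9, 11 and 10 did. In cortical neurons with DMSO 21 Pcdhb genes and all 12 non-clustered genes did. Over the 12 group means the 231 pairs of Pcdhb genes had a median correlation of 0.947 (0.445 to 0.996), and 0.955 over the 210 pairs without Pcdhb1, whereas the 66 pairs of non-clustered genes had a median of 0.424 (−0.737 to 0.963). All pairs share the same 12 groups and arrays. Among the Pcdhb genes 14 had their highest group mean at wild type TN day 2 and 6 at wild type TN day 6, while 5 of the non-clustered genes had it in cortical neurons with DMSO.

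No protocadherin was called in the knockout at the first stages. In ES cells 0 of 34 passed the limma test (0.0853% of all genes rose and 0.266% fell), with 4 Pcdhb genes and 1 non-clustered gene at an unadjusted p under 0.05. Pcdh7 stood at 7.02 and 7.12 in wild type ES cells and at 9.55 and 6.59 in knockout ones, and Pcdh17 at 5.73 and 5.99 against 6.96 and 5.63, so the 2 knockout arrays lay on either side of both wild type arrays. Leaving out 1 knockout ES array leaves the other alone in its group. Calls then changed for members and for genes in general, so no count is given here. In NP 0 of 34 passed the limma test (0.381% of all genes rose and 0.246% fell), with 2 Pcdhb genes and no non-clustered gene at an unadjusted p under 0.05, and median differences of 0.09 and 0.08. No member passed there in any alternative run.

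At TN day 2 the Pcdhb genes were lower in the knockout. All 22 had a difference below 0, with a median of −0.69 against −0.04 over all genes, and 11 of 22 fell while none rose; 5.97% of all genes fell and 5.49% rose. In 21 of the 22 both knockout arrays lay below both wild type arrays, as they did for 31.2% of all genes. Of the 12 non-clustered genes 2 fell, Pcdh8 and Pcdh11x, and the median was −0.34.

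Pcdhb10 stood at 8.98 and 8.98 in wild type and 7.76 and 7.62 in the knockout, a fall of 1.29 ± 0.17 (adjusted p = 3.1e-05). Pcdhb8 stood at 8.17 and 8.19 against 7.29 and 7.33 (−0.87 ± 0.10, adjusted p = 1.4e-05). Pcdhb3 stood at 8.84 and 9.15 against 8.11 and 7.83 (−1.02 ± 0.19, adjusted p = 0.0011). For all 3 genes the gap between genotypes was wider than the gap between arrays of a genotype. The other members that fell were Pcdhb5 (−0.999 ± 0.20), Pcdhb7 (−0.995 ± 0.17), Pcdhb2 (−0.96 ± 0.17), Pcdhb6 (−0.91 ± 0.16), Pcdhb12 (−0.84 ± 0.24), Pcdhb4 (−0.83 ± 0.17), Pcdhb9 (−0.72 ± 0.18) and Pcdhb13 (−0.61 ± 0.16). These lie side by side: each of the 9 genes from Pcdhb2 to Pcdhb10 fell (median −0.96, median SE 0.17), 2 of the 3 from Pcdhb11 to Pcdhb13 fell (median −0.61), and none of the 9 from Pcdhb14 to Pcdhb22 passed (median −0.51, median SE 0.26). The division was again chosen after the values were seen. Without both knockout ES arrays 16 Pcdhb genes fell, now also Pcdhb11, Pcdhb15, Pcdhb16, Pcdhb17 and Pcdhb18, while 1919 of all genes fell. The edge at Pcdhb14 thus depends in part on those arrays.

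**Figure D2:**
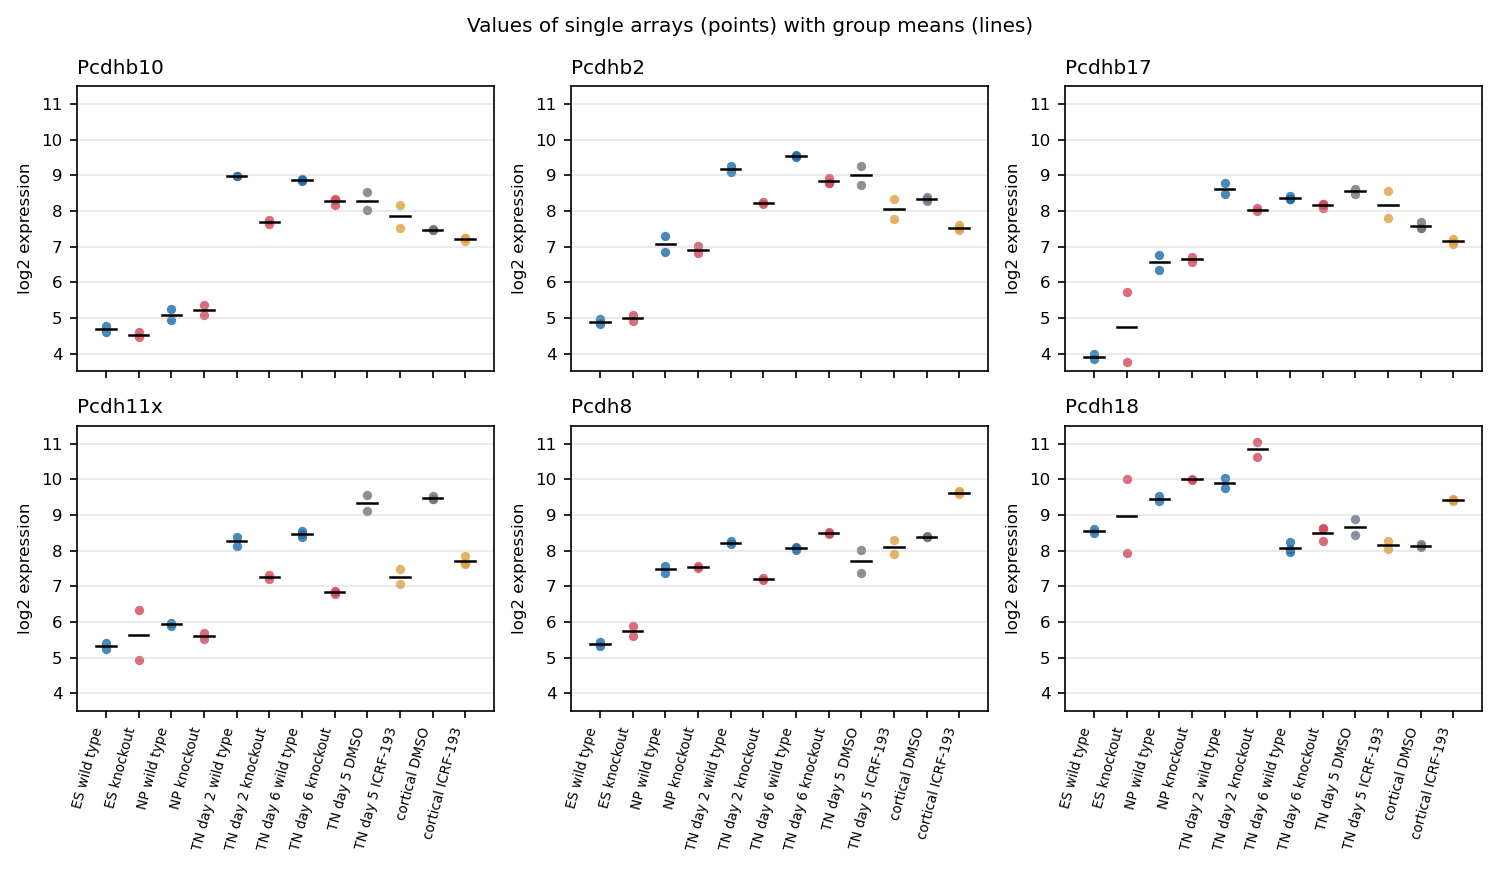
Log2 expression of 6 genes on each of the 28 arrays (points) with the group means (lines), by group; colours mark wild type, knockout, DMSO and ICRF-193. Pcdhb10 and Pcdhb2 are lower in the knockout at both TN days, Pcdh11x is lower in knockout TN neurons and after ICRF-193, and Pcdh8 is lower in the knockout at TN day 2 but higher at TN day 6.

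Pcdh8 stood at 8.26 and 8.17 in wild type TN day 2 neurons and 7.22 and 7.17 in the knockout (−1.02 ± 0.15, adjusted p = 0.0001). Pcdh11x stood at 8.13 and 8.39 against 7.20 and 7.32 (−0.99 ± 0.26, adjusted p = 0.014). Pcdh9 stood at 10.35 and 10.38 against 9.75 and 9.67, a difference of −0.66 ± 0.22 that did not pass (adjusted p = 0.059). None of these groups overlapped. Pcdh18, whose protein binds the migration adaptor Dab1, stood at 9.77 and 10.04 against 10.63 and 11.05 (0.94 ± 0.36, adjusted p = 0.098). The remaining non-clustered genes differed by −0.53 ± 0.49 (Pcdh7) to 0.06 ± 0.17 (Pcdh12). The comparison rests on 2 arrays a genotype: 13 members were called with all arrays and 7 without knockout TN day 2 replicate 2, Pcdh11x missed the threshold without any one of the 4 (highest adjusted p, 0.093), and 21 were called without both knockout ES arrays, when Pcdh7 (adjusted p = 0.046) and Pcdh9 (adjusted p = 0.0076) also fell and Pcdh18 rose (adjusted p = 0.00027).

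Markers of cell types moved at this stage too. Of 15 pan-neuronal markers 9 fell, and their mean over genes ranged from 10.94 to 11.00 on the wild type arrays and from 10.31 to 10.59 on the knockout arrays, with all 15 above the olfactory receptor guide in both. Of 14 mesenchymal and fibroblast markers 5 rose, with means of 7.10 to 8.71 in wild type and 8.74 to 9.13 in the knockout. Their part in the fall of the Pcdhb genes was not tested.

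For 5 members the knockout's difference at TN day 2 was lower than that at NP. For Pcdhb10 the second difference minus the first was −1.42 ± 0.23 (adjusted p = 0.0023), for Pcdhb5 −1.42 ± 0.28 (adjusted p = 0.0089), for Pcdhb6 −1.15 ± 0.23 (adjusted p = 0.0089), for Pcdhb8 −1.06 ± 0.15 (adjusted p = 0.00042) and for Pcdh8 −1.08 ± 0.21 (adjusted p = 0.0067). These 5 of 34 members passed, against 2.71% of all genes. Without both knockout ES arrays 11 passed, while 631 of all genes were called higher and 747 lower, against 275 and 266 with them. The median over the Pcdhb genes was −0.78, and that over the non-clustered genes −0.30. At NP, however, Pcdhb10 was below the background guide in wild type and knockout (5.09 and 5.22, guide 5.92 and 5.84), and Pcdhb5 and Pcdhb8 were below it in wild type (5.66 and 5.77). For these 3 genes a fall at NP could hardly have been measured. Pcdhb6 lay only just above the guide in wild type NP (6.08, arrays at 5.87 and 6.29), so a large fall could not have been measured in full. Pcdh8 lay well above it (7.47).

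At TN day 6 the Pcdhb genes were lower in the knockout again, with 4 falls against 11 at TN day 2 and a smaller median difference, and the largest falls were in non-clustered genes. Again all 22 Pcdhb differences were below 0 (median −0.34, all genes 0.00), in 14 of them all 3 knockout arrays lay below all 3 wild type arrays (15.8% of all genes), and 4 fell: Pcdhb3, Pcdhb2, Pcdhb10 and Pcdhb8. Of the non-clustered genes 5 fell and Pcdh8 rose, while 4.8% of all genes fell and 5.38% rose (958 and 1072 genes, against 1732 and 783 after median centring). With only the arrays compared in each fit 9 Pcdhb genes fell at either day, while 123 of all genes fell at TN day 2 and 1366 at TN day 6. With array weights 14 Pcdhb genes fell at TN day 2 and 9 at TN day 6 (1184 and 1708 of all genes).

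Pcdhb2 stood at 9.51, 9.57 and 9.54 in wild type and 8.79, 8.78 and 8.93 in the knockout (−0.71 ± 0.14, adjusted p = 0.00098). Pcdhb3 stood at 9.34, 9.34 and 9.29 against 8.47, 8.48 and 8.70 (−0.77 ± 0.15, adjusted p = 0.0015). Both were thus separated by more than the spread within either group, and Pcdhb10 (−0.60 ± 0.14) and Pcdhb8 (−0.38 ± 0.08) were likewise. Pcdhb8 was nearer to wild type than at TN day 2 by 0.49 ± 0.13 (adjusted p = 0.037), a change between the days that passed for 2 of 34 members and 4.8% of all genes. It missed the threshold without any one of TN day 2 wild type replicates 1 and 2, TN day 2 knockout replicates 1 and 2, TN day 6 wild type replicates 1, 2 and 3, or TN day 6 knockout replicates 1 and 3 (highest adjusted p over the alternatives, 0.13).

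The other was Pcdh8, whose difference turned round. It stood at 8.09, 8.07 and 8.03 in wild type TN day 6 neurons and at 8.50, 8.46 and 8.53 in the knockout, a rise of 0.44 ± 0.12 (adjusted p = 0.019), and the change from TN day 2 was 1.46 ± 0.19 (adjusted p = 6.4e-05). The rise at TN day 6 alone missed the threshold after median centring or without TN day 6 wild type replicate 2 or 3 or knockout replicate 1 or 3 (highest adjusted p, 0.069), and the change between days passed in each alternative run (highest adjusted p, 0.0011).

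Pcdh11x stood at 8.37, 8.56 and 8.47 in wild type and 6.86, 6.84 and 6.78 in the knockout (−1.64 ± 0.21, adjusted p = 1.3e-05). Pcdh7 stood at 9.78, 9.77 and 9.77 against 8.40, 8.40 and 8.42 (−1.37 ± 0.40, adjusted p = 0.031). Pcdh19 stood at 8.23, 8.33 and 8.34 against 7.17, 7.21 and 7.27 (−1.08 ± 0.22, adjusted p = 0.0022). In these 3 genes the arrays of a genotype lay close together and far from those of the other. The SE of Pcdh7 was 0.15 without both knockout ES arrays (adjusted p = 1e-06). Pcdh9 fell by 0.93 ± 0.18 (adjusted p = 0.0014) and Pcdh17 by 0.73 ± 0.21 (adjusted p = 0.023). Pcdh15, Pcdh10, Pcdh1, Pcdh12, Pcdh18 and Pcdh20 lay between −0.32 ± 0.13 and 0.42 ± 0.29 and did not pass. Pcdh7 and Pcdh17 missed the threshold when any one of the 6 arrays was left out (highest adjusted p, 0.089 and 0.082). Of 15 pan-neuronal markers 2 rose and 1 fell here, with array means of 11.11 to 11.14 in wild type and 11.04 to 11.09 in the knockout. Of 9 glutamatergic neuron markers 3 fell (7.37 to 7.46 against 6.91 to 7.05), while 8 of 12 neural progenitor markers (7.73 to 7.84 against 8.55 to 8.95) and 10 of 11 cell cycle markers (6.86 to 7.08 against 7.66 to 8.16) rose; their part in these results was not tested.

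**Figure D3:**
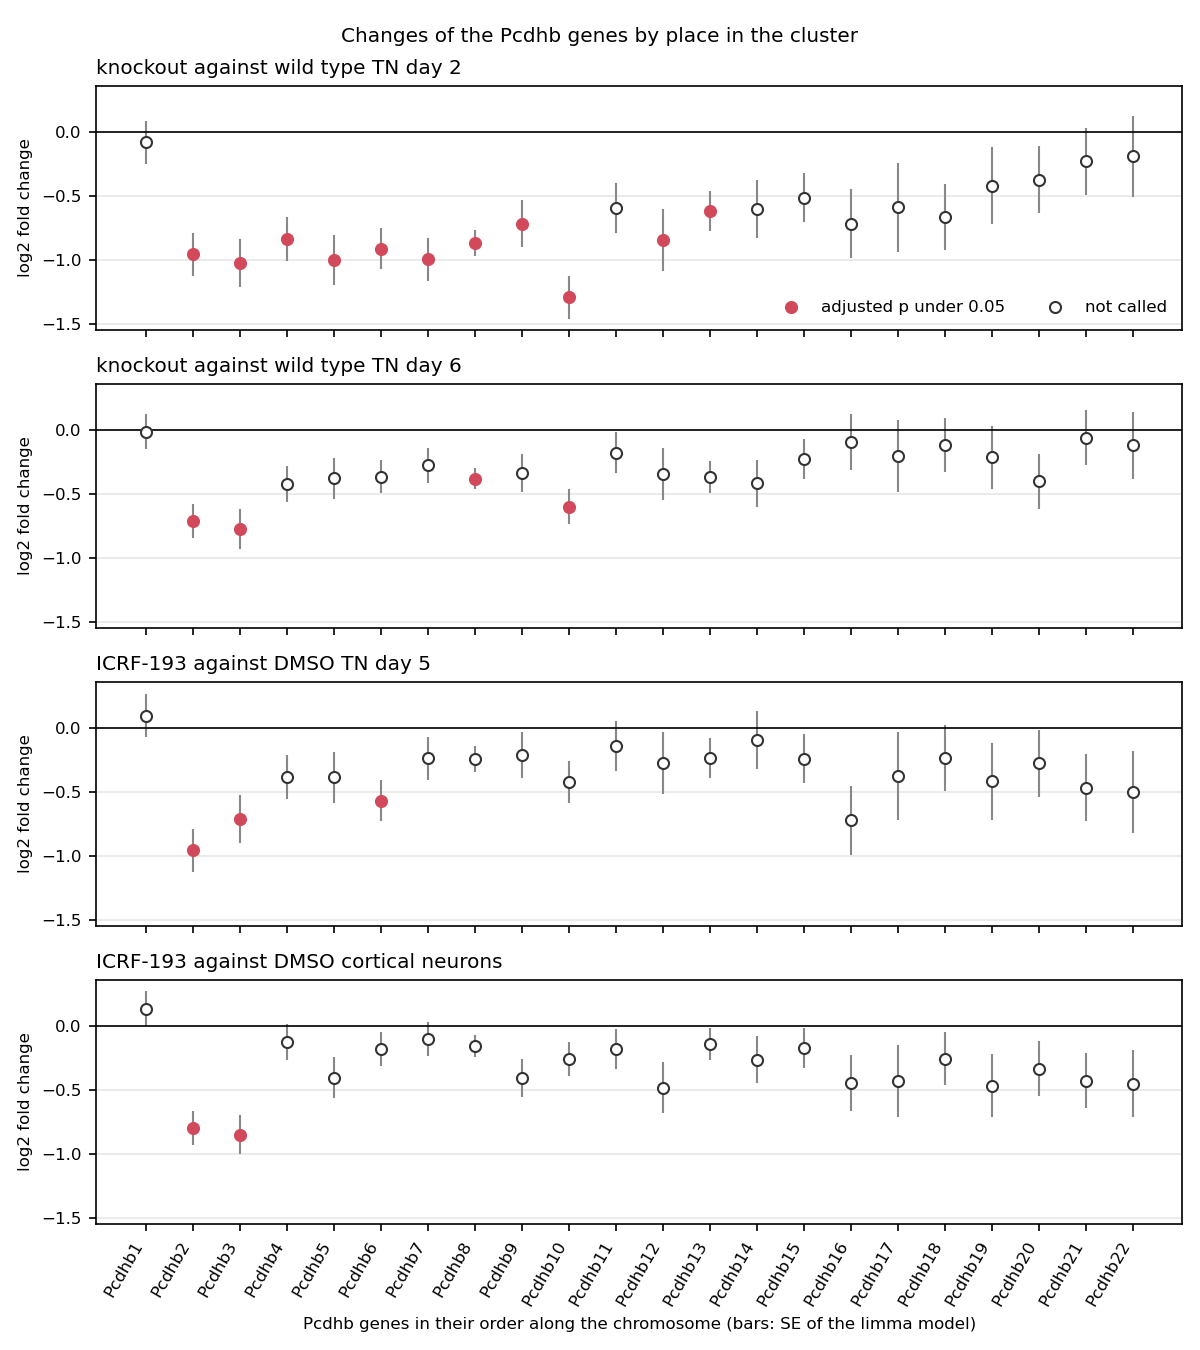
Log2 fold change with its SE for the 22 Pcdhb genes in their order along the chromosome, in 4 comparisons; filled points have an adjusted p under 0.05. At TN day 2 each gene from Pcdhb2 to Pcdhb10 is filled, and Pcdhb2 and Pcdhb3 are filled in all 4 panels.

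In TN day 5 neurons ICRF-193 lowered Pcdhb2, Pcdhb3 and Pcdhb6 of the cluster and Pcdh11x, Pcdh9 and Pcdh19 among the non-clustered genes. No member rose, and 6.37% of all genes fell and 2.51% rose (1271 and 501 genes, against 1101 and 960 after quantile normalization, which left 4 falls and 1 rise among the members). The Pcdhb median was −0.32 and the non-clustered median −0.43, against 0.02 over all genes, and 21 of the 22 Pcdhb differences were below 0. In 5 Pcdhb genes both treated arrays lay below both controls, against 23.4% of all genes. The median Pcdhb level was 7.99 and 8.47 in DMSO replicates 1 and 2, and 7.53 and 8.20 in ICRF-193 replicates 1 and 2. Replicate 2 was thus the higher in both treatments, and this count takes no account of it.

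Pcdh11x stood at 9.11 and 9.56 in DMSO controls and at 7.07 and 7.48 in treated neurons (−2.06 ± 0.26, adjusted p = 1.1e-05). Pcdh9 stood at 10.69 and 10.77 against 9.41 and 10.05 (−1.001 ± 0.22, adjusted p = 0.0065). Pcdhb2 stood at 8.74 and 9.27 against 7.78 and 8.32 (−0.96 ± 0.17, adjusted p = 0.0006). No pair of groups overlapped, though arrays of a treatment differed more than at TN day 6. Pcdh19 fell by 0.95 ± 0.28 (adjusted p = 0.034), Pcdhb3 by 0.71 ± 0.19 (adjusted p = 0.02) and Pcdhb6 by 0.57 ± 0.16 (adjusted p = 0.029). Pcdh7 stood at 9.54 and 9.72 against 8.07 and 8.72, a difference of −1.23 ± 0.49 that did not pass (adjusted p = 0.13), and Pcdh8 at 7.38 and 8.02 against 7.92 and 8.30 (0.41 ± 0.15, adjusted p = 0.086). The other non-clustered genes lay between −0.54 ± 0.25 (Pcdh17) and 0.46 ± 0.24 (Pcdh20). Of the 6 calls only that of Pcdh11x held in each alternative run: 3 members were called without ICRF-193 replicate 1, 11 without ICRF-193 replicate 2, 3 without DMSO replicate 2, and 10, now with Pcdh7, without both knockout ES arrays. Here 6 of 12 progenitor markers (array means 7.73 to 8.35 with DMSO, 6.61 to 6.64 with ICRF-193) and 10 of 11 cell cycle markers (7.27 to 7.87 against 6.49 to 6.66) fell, and 2 pan-neuronal markers rose and 4 fell; their part was not tested.

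The drug's difference at TN day 5 and the knockout's at TN day 6 were set against each other directly. No member differed between them in the limma test, none had an unadjusted p under 0.05, and 7.07% of all genes were called. The drug's difference minus the knockout's was −0.42 ± 0.33 for Pcdh11x, −0.07 ± 0.29 for Pcdh9, 0.13 ± 0.36 for Pcdh19, 0.13 ± 0.64 for Pcdh7 and −0.03 ± 0.19 for Pcdh8. The neurons also differed in age. Without TN day 5 ICRF-193 replicate 1, 1 Pcdhb gene passed.

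In cortical neurons ICRF-193 lowered Pcdhb2 and Pcdhb3 and lowered Pcdh11x, Pcdh7, Pcdh19 and Pcdh20, while Pcdh8 and Pcdh18 rose. Over the cluster 21 of 22 differences were below 0 (median −0.30, all genes 0.04), and in 18 all treated arrays lay below all controls, against 25.9% of all genes. Of all genes 13.7% fell and 9.72% rose (2726 and 1938, against 1952 and 3925 after median centring and 1990 and 2321 after quantile normalization). 

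Pcdhb2 stood at 8.32, 8.38 and 8.27 in the DMSO controls and at 7.46, 7.59 and 7.52 in the treated arrays (−0.80 ± 0.14, adjusted p = 0.00016). Pcdhb3 stood at 8.36, 8.34 and 8.37 against 7.58, 7.61 and 7.35 (−0.85 ± 0.15, adjusted p = 0.00032). Pcdh11x stood at 9.44, 9.43 and 9.52 against 7.62, 7.66 and 7.84 (−1.75 ± 0.21, adjusted p = 2.1e-06). All 3 genes kept their groups well apart, and they held in each alternative run. Pcdhb2 and Pcdhb3 were the only cluster members called in all 4 comparisons of TN or cortical neurons, and Pcdh11x the only non-clustered one; the comparisons share no arrays, but they share the pooled spread.

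Pcdh8 stood at 8.38, 8.38 and 8.41 in the DMSO controls and at 9.66, 9.63 and 9.59 in the treated arrays, a rise of 1.24 ± 0.12 (adjusted p = 8.1e-08). Pcdh18 stood at 8.12, 8.11 and 8.17 against 9.41, 9.46 and 9.40 (1.29 ± 0.29, adjusted p = 0.0027). Neither gene's groups came near to overlapping. Compared with TN day 5, the drug's difference in cortical neurons was higher by 0.83 ± 0.19 for Pcdh8 (adjusted p = 0.0095) and 1.78 ± 0.46 for Pcdh18 (adjusted p = 0.025), the 2 of 34 members that passed, against 4.37% of all genes. Without TN day 5 ICRF-193 replicate 1, or without TN day 5 DMSO replicate 2, no member passed this test.

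Pcdh7 stood at 8.46, 8.40 and 8.38 in the DMSO controls and at 7.29, 7.39 and 7.21 in the treated arrays (−1.12 ± 0.40, adjusted p = 0.049). Pcdh19 stood at 8.76, 8.53 and 8.43 against 7.92, 7.96 and 7.82 (−0.67 ± 0.22, adjusted p = 0.035). Pcdh20 stood at 7.93, 7.51 and 7.99 against 7.00, 7.47 and 7.27 (−0.56 ± 0.20, adjusted p = 0.043). Although the groups of all 3 genes were separate, though narrowly for Pcdh20, none of these calls held in each alternative run, and Pcdh7 missed the threshold when any one cortical array was left out (highest adjusted p, 0.12). Pcdh9, lower in the knockout and at TN day 5, differed by −0.22 ± 0.18 here (adjusted p = 0.41), Pcdh17 by −0.36 ± 0.21 and Pcdh10 by −0.03 ± 0.14. The 8 calls became 5 without cortical ICRF-193 replicate 1 or 3 or DMSO replicate 1 or 3. Without both knockout ES arrays they became 15, with 8 Pcdhb genes, while 3267 of all genes fell and 2627 rose. In the same arrays 11 of 11 cell cycle markers (array means 7.97 to 8.05 with DMSO, 6.53 to 6.60 with ICRF-193) and 6 of 7 astrocyte markers (7.89 to 8.11 against 6.43 to 6.51) fell. Of 12 progenitor markers 6 fell and 1 rose (8.52 to 8.55 against 7.69 to 7.78), and 7 of 9 microglia markers rose (6.08 to 6.23 against 6.71 to 6.87). Of 15 pan-neuronal markers 5 fell and 2 rose (10.90 to 10.94 against 10.54 to 10.59). Of 9 glutamatergic markers 4 rose and 3 fell, and of 8 GABAergic markers 2 rose and none fell. The part of all these markers was not tested.

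**Figure D4:**
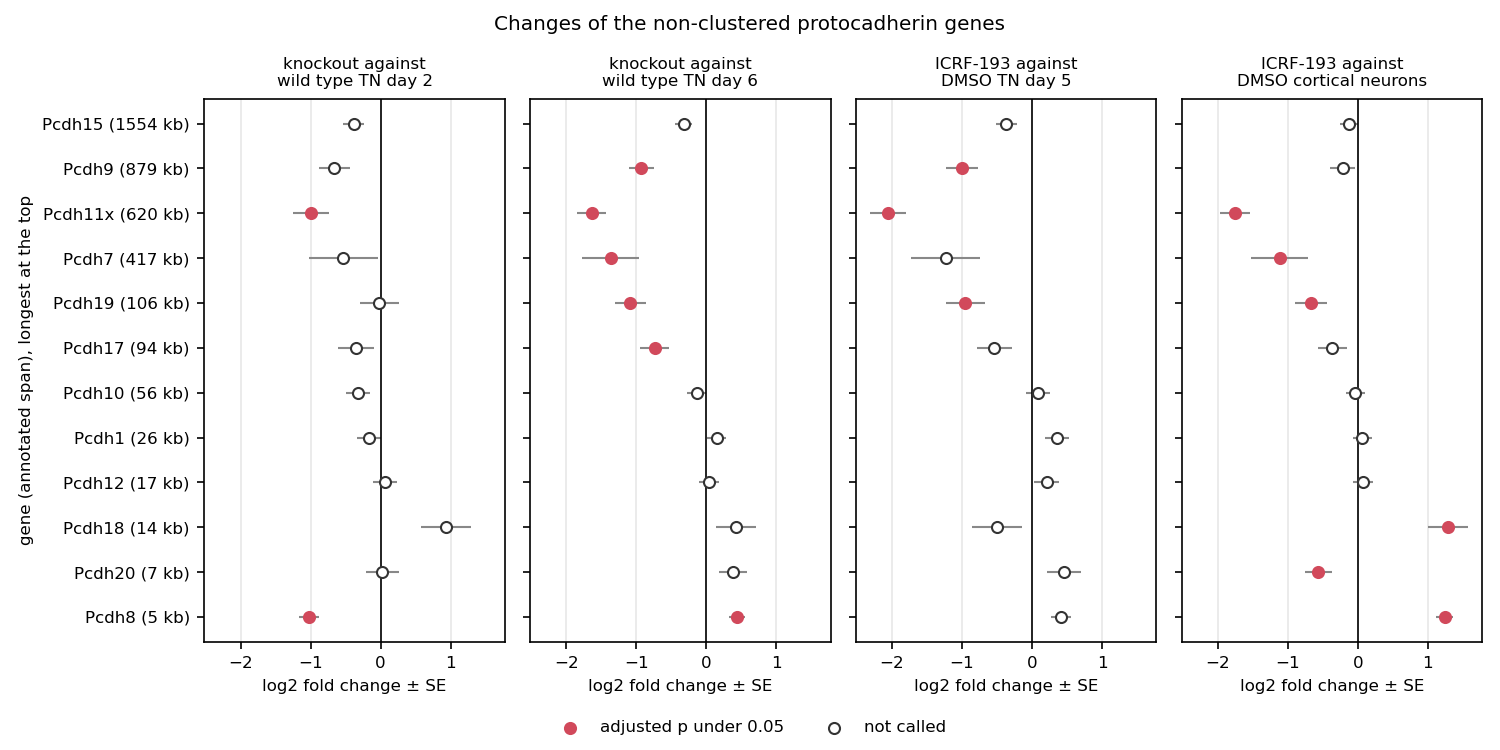
Log2 fold change with its SE for the 12 non-clustered genes, ordered by annotated span from longest to shortest, in 4 comparisons; filled points have an adjusted p under 0.05. In the knockout at TN day 6 the 5 falls lie among the 6 longest genes; after ICRF-193 the falls do as well, except that of Pcdh20 in cortical neurons, and the rises of Pcdh8 and Pcdh18 lie at the bottom.

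Non-clustered protocadherins span very different lengths of the genome in RefSeq (GRCm38.p6), and the genes that fell at TN day 6 and after ICRF-193 were mostly the long ones. Pcdh15 spans 1554 kb, Pcdh9 879 kb, Pcdh11x 620 kb, Pcdh7 417 kb, Pcdh19 106 kb and Pcdh17 94 kb. The other 6 span from 56.2 kb (Pcdh10) down to 4.54 kb (Pcdh8). Of the 6 longest, 5 fell in the knockout at TN day 6, 3 at TN day 5 with ICRF-193 and 3 in cortical neurons with ICRF-193; of the 6 shortest, 0, 0 and 1 fell and 1, 0 and 2 rose. In the knockout at TN day 2 there was 1 fall in each group of 6, with medians of −0.46 for the longest and −0.07 for the shortest. Without both knockout ES arrays Pcdh11x, Pcdh9 and Pcdh7 of the longest fell there, and of the shortest Pcdh8 fell and Pcdh18 rose. In that limma fit Pcdh18 also rose in the knockout at TN day 6 (adjusted p = 0.028). With ICRF-193 at TN day 5 Pcdh18 of the shortest then fell too (adjusted p = 0.04), as did Pcdh7 and Pcdh17 of the longest. Pcdh17 then also fell in cortical neurons (adjusted p = 0.028). Among all 2472 genes with a span of 94 kb or more, 13.8% fell and 7.85% rose in the knockout at TN day 6, and 15.6% and 8.7% at TN day 2. With ICRF-193 18% of them fell and 2.75% rose at TN day 5, and 31% and 9.34% in cortical neurons. Every Pcdhb gene, in contrast, spans 2.34 to 5.27 kb. Of the 4590 genes no longer than that 2.55% fell and 2.16% rose in the knockout at TN day 2, and 2.37% and 2.75% at TN day 6. With ICRF-193 3.33% fell and 2.9% rose at TN day 5, and 7.21% and 12.2% in cortical neurons. The division into groups of 6 was chosen with the values known, and no test was made of it.

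Pcdh15 depended on the probe set. With ICRF-193 the kept one, with the higher mean, gave a difference of −0.37 ± 0.15 in TN neurons (adjusted p = 0.15) and of −0.13 ± 0.13 in cortical ones (adjusted p = 0.49). The second probe set fell by 1.95 ± 0.17 (adjusted p = 7e-08) and 1.22 ± 0.14 (adjusted p = 1.2e-06) in these comparisons, and in the knockout by 0.59 ± 0.17 at TN day 2 (adjusted p = 0.028) and 0.67 ± 0.14 at TN day 6 (adjusted p = 0.0023). Which of the probe sets reads the Pcdh15 transcript of these cells was not tested. The 2 probe sets of Pcdh9 gave like values, −0.93 ± 0.18 and −0.99 ± 0.17 in the knockout at TN day 6, and the second one also passed at TN day 2 (−0.75 ± 0.20, adjusted p = 0.018).

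Genes that act on the choice of clustered promoters were followed with a list, whose counts of calls are to be read against the shares of all genes given above for each comparison. Of 25 measured genes on a list of CTCF, cohesin, DNA methylation and repressor genes, 5 rose and 10 fell from ES cells to NP (21.7% and 24.5% of all genes), led by the DNA methyltransferase Dnmt3b (−3.57 ± 0.11), and 9 rose and 5 fell from NP to TN day 2 (21.6% and 26.6% of all genes). In the latter step the 9 that rose included the cohesin subunits Stag1 (1.69 ± 0.11) and Smc3 (1.05 ± 0.09). The cohesin loader Nipbl (0.85 ± 0.11) and Ctcf itself (0.85 ± 0.09) were also among them. Over the whole list, with its 5 falls, the median difference was 0.09 (all genes, −0.08). A link to the rise of the Pcdhb genes was not tested. From TN day 2 to TN day 6 3 rose and 7 fell (16.7% and 11.9% of all genes). In knockout ES cells and NP none passed the limma test. At TN day 2 the repressor Rest (0.95 ± 0.16, adjusted p = 0.00038), Hells (0.90 ± 0.21, adjusted p = 0.0077) and Uhrf1 (0.75 ± 0.20, adjusted p = 0.017), both known for the upkeep of DNA methylation, and Dnmt3a (0.31 ± 0.10) rose, and the cohesin loader subunit Mau2 (−0.29 ± 0.09) fell. At TN day 6 Uhrf1 (1.32 ± 0.16) and Hells (0.69 ± 0.17) rose and Mau2 (−0.44 ± 0.08) and Ctcf (−0.23 ± 0.07, adjusted p = 0.039) fell. With ICRF-193 Uhrf1 went down instead (−0.85 ± 0.20 at TN day 5 and −1.65 ± 0.16 in cortical neurons). In cortical neurons Hells also fell (−1.09 ± 0.17) and Rest (0.84 ± 0.13) and Tet1 (0.79 ± 0.19) rose. In all, 1 rose and 3 fell at TN day 5 and 3 rose and 4 fell in cortical neurons. Uhrf1 moved in the direction of the 11 measured cell cycle markers, of which 4 rose in the knockout at TN day 2 and 10 at TN day 6. With ICRF-193 10 of these markers fell at TN day 5 and 11 in cortical neurons. Their part in the changes of Uhrf1 and Hells was not tested.

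Partners in protocadherin signalling and processing were called in both directions, as genes in general were. Of 25 measured genes, 7 rose and 8 fell from ES cells to NP, 8 rose and 10 fell from NP to TN day 2, and 8 rose and 4 fell from TN day 2 to TN day 6. In the comparisons of genotypes, 4 rose and 3 fell in the knockout at TN day 2 (5.49% and 5.97% of all genes), with Mmp14, a membrane protease, up by 1.61 ± 0.36 (adjusted p = 0.005), Wasf2 of the actin-regulating WAVE complex up by 0.88 ± 0.13 (adjusted p = 0.00016), and Cyfip2 and Wasf3 of the same complex down by 0.71 ± 0.11 and 0.45 ± 0.10. At TN day 6, 4 rose and 2 fell, among them the receptor Ret (0.64 ± 0.12), which associates with clustered protocadherins, and Prkca (−0.78 ± 0.17). In NP only Wasf1 rose (0.38 ± 0.09, adjusted p = 0.046), and in ES cells none passed. ICRF-193 gave no call among them at TN day 5 and 1 rise and 5 falls in cortical neurons, where Mmp14 fell by 1.18 ± 0.29 and the kinase Fyn by 0.62 ± 0.09.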

How the data were processed

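The deposited values are log2 expression per probe set, normalized by the authors (the oligo package, version 1.14.0, per the submitters' processing notes; the normalization method is not given in the sources used here, and that the log base is 2 is read from the values). Of 35556 probe sets, 21789 had 1 gene symbol, 1621 several and 12146 none listed; genes came from the single symbols, 1 probe set each. The values were fitted as deposited in limma 3.58.1 (R 4.3.3): 12 group means over 28 arrays, 16 residual degrees of freedom, eBayes (prior 4.87), Benjamini-Hochberg over 19938 genes, called at an adjusted p under 0.05. The fit was tested on simulated data. All non-clustered members are named; cluster members where called, at most 12 per comparison; list genes where called, at most 8. Members, lists, tests and alternatives were chosen with earlier results of these data known. Alternatives were quantile normalization, median centring, only the arrays compared, array weights, a replicate block, genes with a mean of at least 5, the mean of all probe sets, a trended robust prior and each array left out. Promoters and spans came from RefSeq (GRCm38.p6). The number of arrays limits the precision.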

Additional observations from a re-analysis of the deposited data

Results flagged for a closer look

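In 9 cases a member's response differed between stages or cell types in a limma test of the difference itself. Of 34 members 5 passed between NP and TN day 2 (2.71% of all genes) and 2 between the knockout's TN days (4.8%). Between the drug's cell types 2 passed (4.37%). A further test, of the drug at TN day 5 against the knockout at TN day 6, called no member and 7.07% of all genes. The knockout's difference at TN day 2 minus that at NP was −1.42 for Pcdhb10, −1.42 for Pcdhb5, −1.15 for Pcdhb6, −1.06 for Pcdhb8 and −1.08 for Pcdh8. In wild type NP Pcdhb10, Pcdhb5 and Pcdhb8 (5.09, 5.66 and 5.77) were below the background guide of 5.92, so a fall there could hardly have been measured. Pcdhb6 was only just above the guide there, with arrays at 5.87 and 6.29. For Pcdh8 and Pcdhb8 the knockout's difference was then higher at TN day 6 than at TN day 2, by 1.46 and 0.49. The response to ICRF-193 was higher in cortical neurons than at TN day 5 by 1.78 for Pcdh18 and by 0.83 for Pcdh8. Pcdh8 thus appears under each of the 3 tests that called a member. The tests between NP and TN day 2 and between TN days share the TN day 2 arrays, which enter them with opposite sign. Those 2 calls are therefore not independent. The knockout's difference for Pcdh8 went from −1.02 at TN day 2 to 0.44 at TN day 6. The calls of Pcdhb10, Pcdhb8 and Pcdh8 between NP and TN day 2, and of Pcdh8 between TN days, held in each alternative run; the others did not.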

How the results depend on the processing

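Of the alternatives for single calls, 1498 kept their call, 142 lost it and none turned the direction. Calls that held in each alternative were 7 of 13 in the knockout at TN day 2, 7 of 10 at TN day 6, 1 of 6 at TN day 5 and 5 of 8 in cortical neurons. Values below count the 34 members called. With only the arrays compared they were 2 at TN day 5, 23 in cortical neurons, 17 from TN day 2 to TN day 6, 9 between the knockout's TN days, and 1 for the drug at TN day 5 against the knockout at TN day 6. Of all genes 3920 rose and 4040 fell in cortical neurons in that run, and 43 and 342 at TN day 5. With array weights they were 17 at TN day 6, 20 in cortical neurons, 11 from TN day 2 to TN day 6 and 5 between TN days. Of all genes 2108 rose and 1708 fell at TN day 6 with these weights, and 4621 and 4346 in cortical neurons. Median centring left 1 between TN days; the mean of all probe sets, or the other probe set of Pcdh9 and Pcdh15, gave 1 (Pcdh15) for the drug against the knockout. Chosen after seeing the data, leaving out both knockout ES arrays gave 21 at TN day 2, 12 at TN day 6, 10 at TN day 5, 15 in cortical neurons, 11 between NP and TN day 2, 7 between TN days, 4 between the drug's cell types and 1 for the drug against the knockout. Of all genes 1575 then rose and 1919 fell at TN day 2, and 1525 and 1275 at TN day 6. With ICRF-193 862 rose and 1840 fell at TN day 5, and 2627 and 3267 in cortical neurons. With each array left out in turn they ranged from 0 to 14 in ES cells, 7 to 12 at TN day 2, 7 to 8 at TN day 6, 3 to 11 at TN day 5, 5 to 6 in cortical neurons, 5 to 8 from TN day 2 to TN day 6, 4 to 6 between NP and TN day 2, 1 to 2 between TN days, 0 to 3 between the drug's cell types and 0 to 1 for the drug against the knockout; a lone array is assumed to vary like the other groups. The cause was not tested. Without both knockout ES arrays the calls of all genes also rose in the tests of differences. Between NP and TN day 2, 631 were higher and 747 lower, against 275 and 266 in the main fit. Between TN days the counts were 1102 and 822, against 540 and 417. Between the drug's cell types 643 were higher and 843 lower, against 336 and 535. For the drug against the knockout the counts were 697 and 1657, against 376 and 1034.

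The replicate numbers were not taken as pairs, since the labels give same-numbered arrays no shared source. Deviations of same-numbered arrays correlated at 0.04 in ES cells, −0.23 in NP, 0.14 at TN day 2 and −0.02 to 0.07 at TN day 6. They did so at 0.38 at TN day 5 and −0.06 to −0.01 in cortical neurons. Across the steps the values were 0.32 (ES cells to NP), 0.19 (NP to TN day 2) and −0.13 to −0.02 (TN day 2 to TN day 6). With the replicate block the members called were 1 in ES cells, 0 in NP, 13 at TN day 2, 10 at TN day 6, 8 at TN day 5 (7 falls and 1 rise), 6 in cortical neurons, 27, 30 and 6 in the steps and 1 between TN days. Calls lost under it were Pcdhb10 from ES cells to NP, Pcdhb18 from TN day 2 to TN day 6, Pcdh7 and Pcdh20 in cortical neurons, and Pcdhb8 between TN days; the crossed pairing in NP, chosen after seeing the data, called 0. Scaling moved the median of all genes by over 0.1 from NP to TN day 2, from −0.08 to 0.05 with median centring and 0.02 with quantile normalization, and for the drug against the knockout, from 0.02 to 0.14 with median centring.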
